A study of Drosophila melanogaster with 3 samples.

Results

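Broad peaks of heterochromatin protein 1 (HP1) are the subject of the results below. They were taken from 1 deposited list of HP1 peaks, by a rule that kept every peak of at least 3 kb (its end minus its start) on 9 placed sequences of the Drosophila melanogaster genome, namely the chromosome arms 2L, 3L, 3R and X, chromosome 4, and the separately assembled heterochromatin sequences 2LHet, 3LHet, 3RHet and XHet. The rule found 303 such peaks among 3618 peaks on these sequences and 15755 in the whole list. The members were thus chosen by their measured width. For that reason widths and the bases they cover are given as descriptions with no test, and so is the score, which goes with width.

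The list comes from chromatin immunoprecipitation with sequencing (ChIP-seq) on whole embryos aged 8 to 16 h. There were 2 HP1 ChIP samples, made with the rabbit polyclonal antibody ab24726, and 1 input DNA sample, all of the strain labelled Y cn bw sp. The genotype on the labels combines y[1] with oc[R3.2], then Gr22b[1] with Gr22d[1], cn[1] and CG33964[R4.2], further bw[1] and sp[1], and lastly LysC[1] with lab[R4.2], MstProx[1], GstD5[1] and Rh6[1]. All samples share this genotype and age, so no comparison between conditions exists. The list has no column per sample. Errors between replicates can therefore not be given, and the sequencing depth behind each peak is unknown. Whole embryos mix many cell types, and a peak held by few cells with much HP1 cannot be told apart from one held by many cells with little.

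HP1 binds, through its chromodomain, histone H3 methylated at lysine 9, and pairs with itself through its chromoshadow domain, by which it recruits further proteins. In flies it is best known from the repeat-rich heterochromatin around the centromeres, from chromosome 4 and from the telomeres, where it takes part in protecting the chromosome end. Heterochromatin is thought to form long stretches as methylated histones recruit HP1 and HP1 recruits the enzyme that methylates the neighbouring histones. A broad peak is a stretch that the peak caller reported as 1 unbroken interval, so its edges depend on the caller as well as on HP1. Positions are on FlyBase release 5, counted from 1, and no genome sequence or gene annotation of that release was used here, so the peaks are described by position, width, score and neighbours.

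Broad peaks were few but held much of the HP1-covered sequence. They made up 8.37% of the peaks on the 9 sequences and 37.7% of the bases under peaks, 1569035 of 4158225 bp. They had a median width of 4490 bp, with quartiles of 3586 and 5697.5 bp and a maximum of 21399 bp. The 3315 narrower peaks on the same sequences had a median of 534 bp. Of the broad peaks, 124 were 3 to 4 kb wide, 66 were 4 to 5 kb, 67 were 5 to 7 kb, 33 were 7 to 10 kb and 13 were at least 10 kb. Those 13 alone held 11.3% of all bases in broad peaks. At the limit of the rule, the narrowest broad peak was 3001 bp wide with a score of 65.97 and lay on 3LHet, and the widest peak left out was 2997 bp wide with a score of 56.04 and lay on 3R.

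The share of covered bases that lay in broad peaks divided the sequences into a higher and a lower set. It was 44.7% on 2L, 42.4% on 3L, 40.5% on 3LHet and 36.5% on 3RHet. It was lower on chromosome 4 with 26.4%, X with 24.8%, 3R with 21.4% and 2LHet with 21.4%. On 2L, 3L, 3LHet and 3RHet 8.09% to 10.7% of peaks were broad, and on chromosome 4, X, 3R and 2LHet 4.46% to 5.00%. XHet had none among its 32 peaks, of which the widest was 2882 bp. The counts behind the lower shares were small, with 7 broad peaks each on 3R and 2LHet, 11 on X and 12 on chromosome 4. On 2L there were 52, on 3L 71, on 3LHet 82 and on 3RHet 61.

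**Figure D1:**
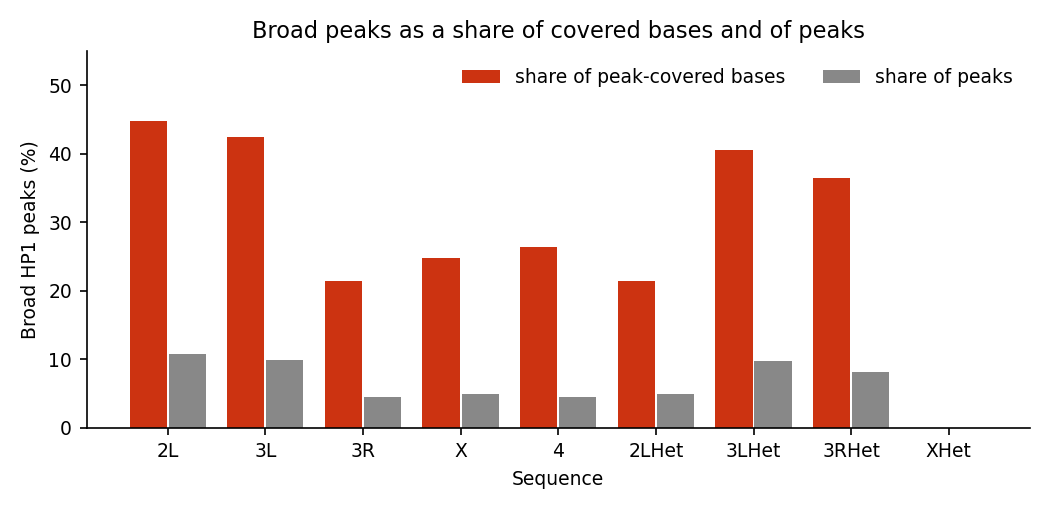
Percentage of peak-covered bases (red bars) and of peaks (grey bars) that broad HP1 peaks made up on each of the 9 sequences. On 2L broad peaks were 10.7% of peaks and 44.7% of covered bases, and on XHet there were none.

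Set against sequence length, with the end of the last peak taken as the length, the order changed. Broad peaks covered 17.4% of 3LHet, 11.4% of 3RHet and 7.27% of 2LHet. They covered 5.18% of chromosome 4, where narrower peaks covered 14.5%. Among the arms, 3L had 1.56% of its length in broad peaks, 2L had 1.24%, X had 0.209% and 3R had 0.112%. Broad peaks thus covered fewer bases than the narrower peaks on each of the 8 sequences that had them, and came closest on 2L, with 1.24% of the arm against 1.53% under narrower peaks.

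By place, 150 broad peaks (49.5%) lay on the Het sequences, 77 (25.4%) in the centromere-proximal 1 Mb of the 4 arms, 31 (10.2%) in the next stretch out to 3 Mb, 33 (10.9%) beyond 3 Mb and 12 (3.96%) on chromosome 4. Of all peaks on the 9 sequences, 49.0% were Het sequence peaks, 21.7% lay in the proximal 1 Mb, 7.38% in the next stretch, 14.5% beyond 3 Mb and 7.41% on chromosome 4. The share of broad peaks was thus close to that of peaks of any width on the Het sequences. It was higher in the proximal 1 Mb and the next stretch, and lower beyond 3 Mb and on chromosome 4. The percentage of peaks that were broad ran from 4.48% on chromosome 4 to 11.6% in the inner 1 to 3 Mb. These shares were not tested against each other. The centromere is beyond the last base of the 2L, 3L and X sequences and before the first base of 3R. The arms differed in how their inner ends were filled. On 2L the innermost 0.5 Mb held 28 broad peaks, in which 57.1% of its covered bases lay, the next 0.5 Mb held 10, and the second Mb held 2. On 3L the first 0.5 Mb held 20, the next 15, and the second Mb held 27 with 54.7% of its covered bases, while the third Mb held none. On X the innermost 0.5 Mb held none and the next held 3. On 3R the inner 3 Mb held 2 broad peaks among 34 peaks of any width.

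Within these regions broad peaks came close together in places. In windows of 100 kb, 1400001 to 1500000 of 3LHet held the midpoints of 7 broad peaks, whose bases came to 51.2% of the window, and 23400001 to 23500000 of 3L held those of 8, with 50.6%. The window of 2L from 22500001 to 22600000 followed with 7 broad peaks and 40.2%. Broad peaks occurred in 23 of 26 windows of 3LHet, 20 of 25 of 3RHet, 4 of 4 of 2LHet and 6 of 14 of chromosome 4, but in 61 of 980 windows of the 4 arms.

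The widest broad peaks lay mostly in or near pericentric sequence. The widest, of 21399 bp, ran from 23288299 to 23309697 on 3L, between 1 and 2 Mb from its inner end, with a score of 148.83, the highest of its arm. Of the 13 peaks of at least 10 kb, 4 lay on 3LHet, 5 on 3L, 2 on 2L and 2 on chromosome 4. On 3LHet the widest was 14443 bp (1440013 to 1454455, score 121.22), and on 2L 14203 bp (22482052 to 22496254, score 160.72). Another 3L peak, of 14197 bp, from 23450240 to 23464436, had a score of 97.51. The widest peak of 3RHet was 8953 bp with a score of 66.68, and those of X, 2LHet and 3R were 5217, 5211 and 5151 bp.

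The 2 on chromosome 4, from 1324173 to 1335181 and from 1337221 to 1348208, lay near the end of its last peak at 1351935. Among the widest peaks of the 4 arms, the exception was at the other end of 3L. A peak of 20098 bp, from position 9 to 20106, filled the telomeric end of the arm. Its score of 63.28 was the lowest of the 13. The outer 20 kb of X held 3 broad peaks, from 1 to 3857 (score 96.72), from 6162 to 9300 (score 145.9) and from 13797 to 18591 (score 92.23), with no narrower peak between them. The same stretch of 2L held a single broad peak of 5101 bp from position 30. The outer 20 kb of 3R, taken up to the end of the last peak, held 6 peaks and none of them was broad, the widest being 717 bp, although their highest score was 95.46. Among the 4 arms, telomeric HP1 was thus listed as broad intervals on 2L, 3L and X and as a row of narrow peaks on 3R. The ends of chromosome 4 were not counted in this way.

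Chromosome 4, a small chromosome that mixes genes with heterochromatin, had broad peaks of high score at its high-coordinate end. Of its 12 broad peaks, 7 lay at or beyond 1280774, with scores from 100.71 to 220.1 and a median of 161.07. The 5 before it had scores from 32.46 to 71.68 with a median of 55.63. These groups did not overlap in score, whereas their widths did, from 3389 to 11009 bp for the 7 and from 3438 to 8913 bp for the 5. The division was made after the values were seen, so the lack of overlap follows in part from where it was placed. The highest score of all broad peaks, 220.1, belonged to a peak of 3556 bp in the first of these groups, from 1313699 to 1317254. The narrower peaks of chromosome 4, with scores up to 159.41, were not divided in this way.

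Scores were compared with width because wide peaks scored higher. Across the 303 broad peaks the rank correlation of score and width was 0.42, lower than the 0.81 across the 3315 narrower peaks. Both are descriptions across peaks of 1 list, which share libraries and caller and are not independent, and a set limited to wide peaks spans a smaller range of log width. The median score was 60.8 for peaks of 3 to 4 kb, 63.2 for 4 to 5 kb, 77.7 for 5 to 7 kb, 92.0 for 7 to 10 kb and 121.2 for at least 10 kb. The scores of neighbouring bins overlapped widely. Peaks of 3 to 4 kb ranged from 30.14 to 220.1 and those of 7 to 10 kb from 43.48 to 153.47. Broad peaks had a median score of 67.39 and a lowest score of 30.14. Of the narrower peaks, whose median was 18.17, 24.1% reached the lowest broad score and 1.93% reached the median broad score. Broad peaks held 18 of the 20 highest scores on the 9 sequences.

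**Figure D2:**
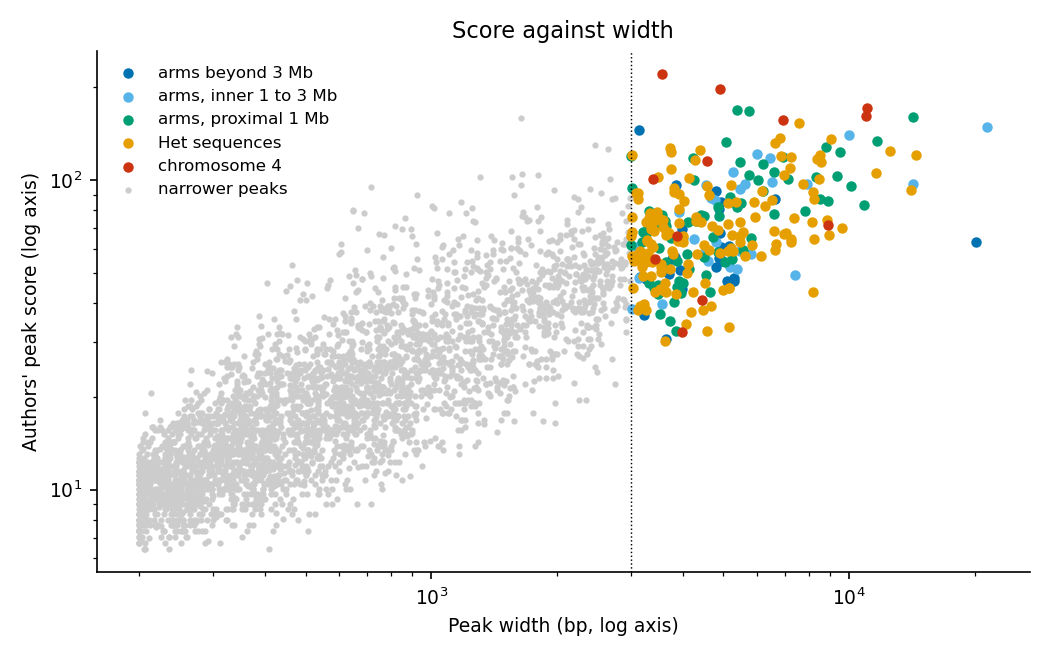
The authors' score against peak width, both on log axes, for each broad peak (coloured by place) and each narrower peak (grey) on the 9 sequences. The dotted line marks the limit of 3 kb. Chromosome 4 supplied the highest score, 220.1, and the telomeric 3L peak of 20098 bp lies low at 63.28.

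To take account of width, each broad peak's score was set against the median of the 41 broad peaks nearest to it in width. At the wide end this leaves width in: the 21 widest peaks, from 8913 to 21399 bp, share 1 median of 97.51. The widest peak therefore stood 51.32 score units over it, but 0.08 log2 units over a straight line of log2 score on log2 width. These values are on different scales and cannot be compared in size. The median of this difference was 42.21 score units on chromosome 4, 5.73 in the proximal 1 Mb, 1.91 in the inner 1 to 3 Mb, -4.71 beyond 3 Mb and 0 on the Het sequences. The difference was above 0 for 8 of 12 peaks on chromosome 4, 45 of 77 in the proximal 1 Mb, 17 of 31 in the inner 1 to 3 Mb, 69 of 150 on the Het sequences and 9 of 33 beyond 3 Mb. On chromosome 4 it ran from 39.61 to 165.75 for the 7 peaks at or beyond 1280774. For the 5 before it the difference ran from -31.22 to 2.45, so the high median there is not a trait of the whole chromosome. The ranges between the quartiles overlapped for all 5 places, from -11.3 to 67.5 on chromosome 4 and from -10.3 to 0.34 beyond 3 Mb. These differences between places were not tested.

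The 5 broad peaks that scored highest for their width lay on chromosome 4, 2L and X. On chromosome 4 the peak of 3556 bp named above stood 165.75 units over the median for its width, and that of 4900 bp from 1293222 to 1298121, with a score of 196.89, stood 136.14 over it. On 2L, peaks of 5393 bp (22962587 to 22967979, score 168.48) and 5760 bp (22969290 to 22975049, score 167.72) stood 101.73 and 85.69 over it, with 1310 bp between them. On X it was the subtelomeric peak of 3139 bp, 86.71 over. The lowest for their width were a 3LHet peak of 8201 bp (438851 to 447051) with a score of 43.48, a difference of -53.6 units. Next came a 2L peak of 7436 bp (20104476 to 20111911, score 49.5) with -37.9 units and a 3RHet peak of 4566 bp (116082 to 120647, score 32.7) with -36.3. The telomeric 3L peak and a 3RHet peak of 7265 bp completed the 5, with -34.2 and -33.9 units. The log2 line gave the same 5 highest peaks and shared 3 of the 5 lowest. In place of the 2L peak of 7436 bp and the 3RHet peak of 7265 bp it put a 3LHet peak of 5153 bp from 447469 (score 33.46) and a 3RHet peak of 3631 bp from 1054644 (score 30.14).

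Some widths recurred, most visibly on the arms away from the centromeres. Of the 33 broad peaks beyond 3 Mb, 17 (51.5%) were between 4.7 and 5.3 kb wide, against 27 of the 270 broad peaks elsewhere (10.0%). Between 4.8 and 5.0 kb there were 10 of 33 (30.3%), against 7 of 270 (2.59%). The ranges were chosen after the widths were seen, so these shares are a description. The 17 peaks lay on all 4 arms, 8 on 2L, 5 on X, 2 on 3L and 2 on 3R, were 4795 to 5288 bp wide and had scores from 47.28 to 92.23 with a median of 59.33. Beyond 3 Mb no broad peak had a width between 3982 and 4795 bp, although 14 were 3982 bp or narrower. Elsewhere 49 broad peaks fell in that interval, 24 of them on Het sequences, 13 of them in the proximal 1 Mb, 9 in the inner 1 to 3 Mb and 3 on chromosome 4.

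**Figure D3:**
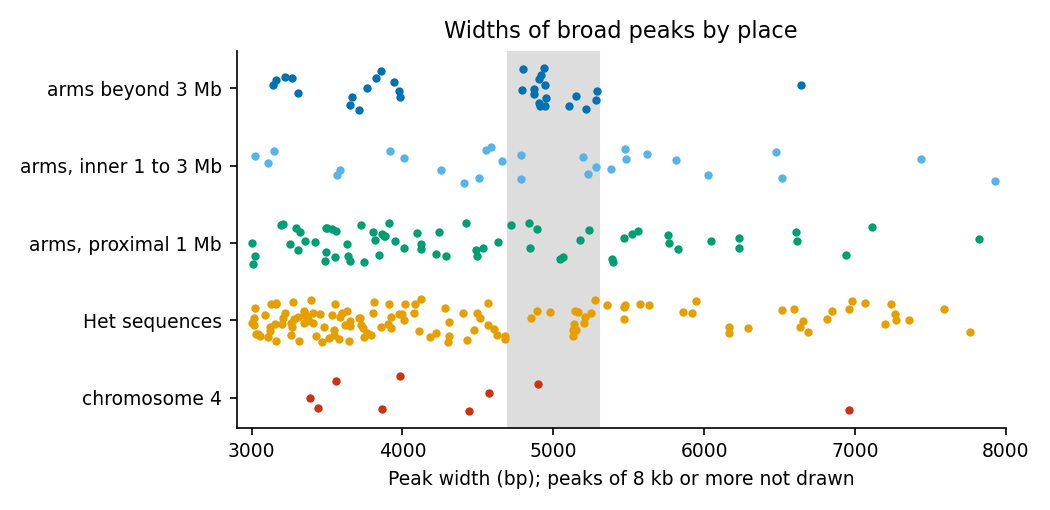
Widths of broad peaks in bp by place, 1 point per peak with random vertical spread, and with the 34 peaks of 8 kb or more not drawn. The grey band runs from 4.7 to 5.3 kb and holds 17 of the 33 broad peaks of the arms beyond 3 Mb.

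Several of these peaks also had the same neighbours. At 7 places a broad peak of 4870 to 4946 bp had a narrow peak of 265 to 340 bp on one side, across a gap of 202 to 276 bp, and a narrow peak of 394 to 498 bp on the other side, across a gap of 540 to 634 bp. Measured over all 3 peaks, the layout spanned 6432 to 6544 bp, while the ranges used to find it would have allowed 6100 to 6850 bp. It occurred 4 times on 2L (broad peaks from 6992157, 9975239, 12559094 and 16513480), 2 times on X (from 2505142 and 12825341) and 1 time on 3R (from 873104). The nearer narrow peak was on the low-coordinate side at 4 places and on the high-coordinate side at 3, so the layout occurred in both orientations. The broad peaks scored 58.88 to 85.23, the nearer narrow peaks 18.66 to 31.93 and the farther ones 22.99 to 37.94. At every place the broad peak was the highest of the 3.

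A second layout had a broad peak of 5151 to 5288 bp with a narrow peak of 783 to 956 bp across a gap of 400 to 503 bp and no peak within 2 kb on the other side. It occurred 4 times, on 2L from 2113776 and from 10594597, on X from 1826234 and on 3R from 19678453, each time with the narrow peak on the low-coordinate side. It spanned 6430 to 6641 bp, and the ranges used to find it would have allowed 6200 to 6900 bp. Those limits are close to the ones of the first layout, so the nearness of the 2 spans follows largely from the ranges chosen. The last layout had a broad peak of 3668 to 3763 bp with a narrow peak of 545 to 736 bp across a gap of 308 to 360 bp. It occurred 3 times, on 3L from 1426155 and on 3R from 5104655 and 15571428, and spanned 4616 to 4777 bp. The ranges used to find it would have allowed 4400 to 5000 bp. The span of 4616 to 4777 bp was near the width of broad peaks that stood alone, such as one of 4787 bp on 3R from 1164354 and one of 4798 bp on 3L from 12912487. That nearness also follows in part from the ranges chosen. The 3 layouts were looked for among all 303 broad peaks with ranges chosen after seeing the list, and took in 14 of them, 13 beyond 3 Mb and 1 on the proximal 3R.

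**Figure D4:**
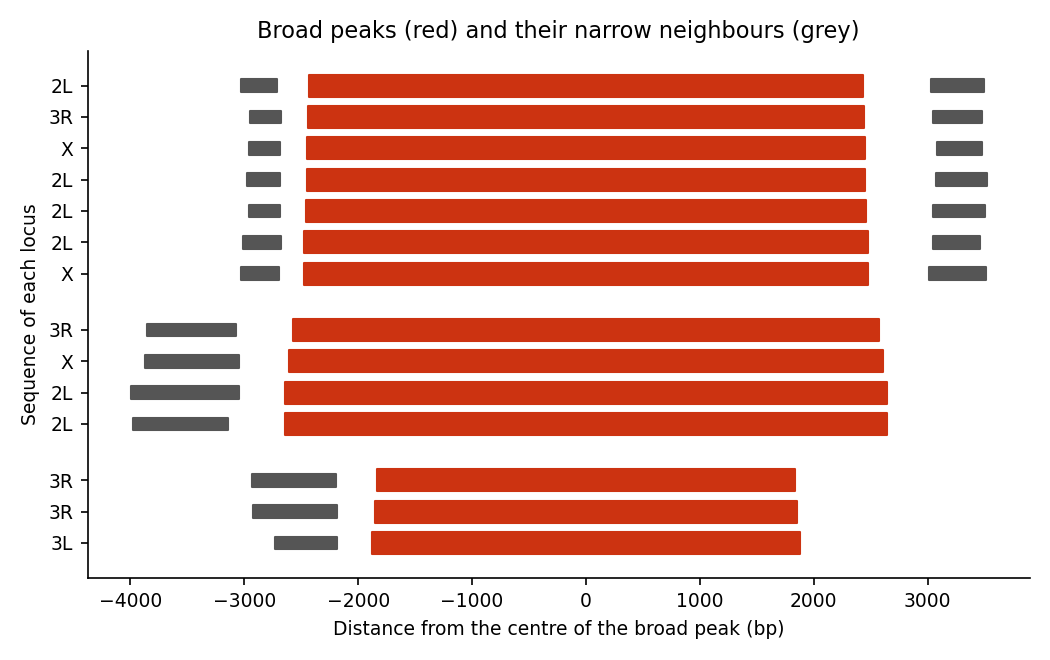
The 14 broad peaks (red) of the 3 recurring layouts with their narrow neighbours (grey), drawn to scale as distance in bp from the broad peak's centre, and turned where needed so that the nearer narrow peak is on the left. The top 7 span 6432 to 6544 bp, the middle 4 span 6430 to 6641 bp and the bottom 3 span 4616 to 4777 bp.

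The spans of whole chains of peaks were also counted, in ranges that were not set beforehand. When neighbours closer than 2 kb were joined beyond 3 Mb, each of the 33 broad peaks fell into a chain of its own. Of these 33 chains, 10 spanned 6.4 to 6.7 kb and 9 spanned 4.5 to 5.0 kb. Of the 181 chains without a broad peak, 2 and 3 did. The median span of those 181 was 1805 bp. The chains include the broad peaks' own width and are therefore not independent of the rule. Most chains of 6.4 to 6.7 kb were the layouts described above. Most of 4.5 to 5.0 kb were layouts or broad peaks with no peak within 2 kb, so these spans are not a further recurrence.

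Across all broad peaks, exact widths recurred without such a pattern. For 215 of the 303 (71.0%) another broad peak had a width within 10 bp. For the 303 next narrower peaks, of 1884 bp or more, the share was 99.3%. Those crowd into a smaller range of widths, and such shares rise with crowding. The largest groups within 10 bp held 5 peaks, and there were 5 such groups, at 3014 to 3022, 3153 to 3163, 3548 to 3558, 3646 to 3653 and 5466 to 5474 bp. Each of these groups was spread over at least 3 sequences, and their scores varied. The group at 3548 to 3558 bp held scores of 44.72, 52.37, 53.69, 77.51 and 220.1. Its neighbours also varied, with gaps to the next peak on the low side from 69 to 6969 bp. Exactly equal widths occurred at 8 pairs of broad peaks, and in each pair 1 peak lay on a Het sequence and the other on an arm.

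Narrow peaks, defined as those under 1 kb, flanked most broad peaks. A narrow peak was the next peak within 2 kb on both sides of 65 broad peaks (21.5%), on 1 side of 150 (49.5%) and on neither side of 88 (29.0%). For the 2485 narrow peaks counted the same way, the shares were 27.0%, 47.4% and 25.6%. The gap to the nearest peak of any width had a median of 246 bp for broad peaks and 276 bp for narrow peaks, and it was under 100 bp for 18.2% of broad peaks and 20.0% of narrow ones. Broad peaks were thus flanked about as often as narrow peaks over the 9 sequences together, with the share flanked on both sides lower by a few points, a difference that was not tested.

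The peaks next to broad peaks were wider than those next to narrow peaks, but not wider than those next to peaks of 1 to 3 kb. Within 2 kb, broad peaks had 451 neighbours with a median width of 733 bp, of which 13.3% were broad themselves. Narrow peaks had neighbours with a median of 597 bp, of which 7.76% were broad. Peaks of 1 to 3 kb had neighbours with a median of 737 bp, of which 8.60% were broad. In 30 pairs broad peaks followed each other within 2 kb, with a median gap of 377 bp, and 55 broad peaks (18.2%) belonged to such a pair. Of the pairs, 17 lay on the Het sequences, 7 in the inner 1 to 3 Mb, 5 in the proximal 1 Mb and 1 on chromosome 4. The smallest gap was 46 bp, between a 3L peak of 4011 bp and the 21399 bp peak next to it. With peaks closer than 1 kb merged, 539 intervals reached 3 kb instead of 303 and held 82.3% of the bases. Merged widths include the gaps between joined peaks, so this share cannot be set directly against that of the unmerged peaks.

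The flanks were also counted by place. Of broad peaks, 22.0% on the Het sequences had no narrow peak as the next peak within 2 kb, 25% on chromosome 4, 31.2% in the proximal 1 Mb, 41.9% in the inner 1 to 3 Mb and 45.5% beyond 3 Mb. For narrow peaks the share was 22.4% on Het sequences, 27.8% on chromosome 4, 27.5% in the proximal 1 Mb, 32.7% in the inner 1 to 3 Mb and 28.7% beyond 3 Mb. Broad and narrow peaks were thus close on the Het sequences, chromosome 4 and the proximal 1 Mb and farther apart on the outer arms, with no test of these differences. In the inner 1 to 3 Mb, 27.5% of the neighbours of broad peaks were broad, against 10.3% of those of narrow peaks. Beyond 3 Mb none of the 27 neighbours of broad peaks was broad and 88.9% were narrow, with a median width of 469 bp. Of the neighbours of narrow peaks there, 4.85% were broad and 81.2% narrow, with a median width of 550 bp. There the gap to the nearest peak had a median of 400 bp for broad peaks and 274 bp for narrow peaks. Beyond 3 Mb, 36.4% of broad peaks and 14.2% of narrow peaks had no peak within 2 kb.

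**Figure D5:**
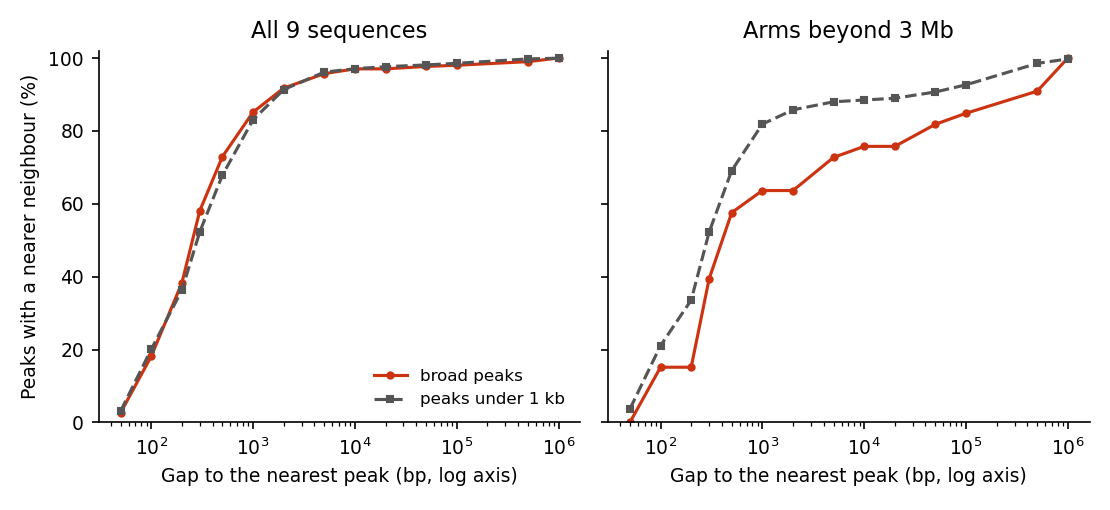
Percentage of peaks whose nearest peak lies closer than the gap on the horizontal log axis (bp), for broad peaks (red) and peaks under 1 kb (grey). Over all 9 sequences both curves run together, and on the arms beyond 3 Mb 63.6% of broad peaks and 85.8% of narrow peaks had a neighbour within 2 kb.

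Broad peaks that stood alone, with no peak of any width within 5 kb, numbered 13 (4.29%), against 96 narrow peaks (3.86%). Of these 13, 9 lay beyond 3 Mb, 1 in the inner 1 to 3 Mb, 2 in the proximal 1 Mb, 1 on 3RHet and none on chromosome 4. Beyond 3 Mb they made up 27.3% of the broad peaks, against 12.0% of the narrow peaks there. The widest was the first peak of 2L, of 5101 bp. This peak had the start of the sequence on one side, where no gap could be measured, and its next peak 990160 bp away. After it came single peaks of 4938 bp on 3R (from 6783978, score 55.01), 4912 bp on 2L (from 10138263, score 56.04), 4875 bp on X (from 6324131, score 55.98), 4798 bp on 3L (from 12912487, score 52.37) and 4787 bp on 3R (from 1164354, score 63.17). These last 5 peaks lay on all 4 arms and each was at least 33198 bp from its nearest neighbour, while their widths lay within 151 bp and their scores within 10.8 units of each other. The 5 are consecutive in the order of width, so their narrow range of widths follows in part from how they were picked. Narrower single broad peaks of 3982, 3979 and 3941 bp lay on 3R from 4724770 and on 3L from 4452533 and 14305442, with scores of 69.48, 44.63 and 51.28. A single broad peak of 4220 bp in the proximal 1 Mb of X, from 21582457, had a higher score, 117.72.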

How the data were processed

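Samples were grouped by their labels into 2 HP1 ChIP samples and 1 input sample; per the labels, embryos were cross-linked in 1.8% formaldehyde for 15 min. The authors deposited 1 peak list, on FlyBase release 5 from a caller named MACS, per the file headers. The submitters' processing notes name BWA, MACS2 and 2 versions of CASAVA, 1.7.0.2 and 1.7.0.3. Not given in the sources used here are parameters, peak threshold, handling of repeat reads and pooling of replicates. The score deposited for each peak has no stated definition. It was used within the list only. Depth per sample is unknown. How the caller joins nearby signal and where repeat reads are placed can both change widths; their part was not tested.

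Starts were read as counted from 0, since the lowest is 0. Ends of last peaks stood for sequence lengths. A peak's place is that of its midpoint. Gaps run between neighbouring edges on a sequence. Regions named are the 10 widest, the widest and highest scoring of each sequence, the 5 highest and 5 lowest for width, the 10 widest isolated ones, the 5 largest groups of recurring width and the limits of the rule. The subtelomeric, chromosome 4 and layout peaks were added after their values were seen. Members and lists were chosen with earlier results of these data known. No test was run, since the list has no replicate values. The measures were tested on simulated peaks with Python 3.11.15, pandas 2.3.3 and scipy 1.17.1.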

Additional observations from a re-analysis of the deposited data

Results flagged for a closer look

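Peaks of 3 kb or more also lay on sequences that no comparison above uses, and are given as a signal in data outside the main measurement. On U, which collects sequence without a chromosomal place, 95 of 2070 peaks (4.59%) were broad and held 26.3% of the covered bases, with a median width of 4140 bp. On Uextra, 19 of 8329 peaks (0.228%) were broad and held 2.15% of the covered bases, with a median score of 99.1. The 3 other sequences of the list held 176 broad peaks among 1738 (10.1%). There are no control peaks to set these counts against.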

How the results depend on the processing

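No paired analysis was possible because the list has no columns per sample, so no replicate could be left out either. A width limit of 2 kb gave 556 broad peaks with 52.6% of covered bases, 83.8% with a recurring width and a rank correlation of score and width of 0.57. A limit of 5 kb gave 113 peaks, 20.1%, 44.2% and 0.48, and 0.885% isolated. The shares on the Het sequences and in the proximal 1 Mb stayed within their 95% exact binomial intervals under both limits. Those intervals treat the 303 peaks as independent, which they are not. The sets also share peaks, since every peak of a higher limit is in the set of a lower one. The intervals can therefore not decide how stable the shares are. With scores at or above the median of 19.54, the 303 peaks held 45.8% of covered bases, 9.24% were isolated and 7.92% had narrow peaks on both sides. By construction this setting removes low narrow peaks. Merging peaks closer than 1 kb gave 539 broad peaks with 82.3% of bases, where the gaps between joined peaks count as bases. The proximal share was 15.8% in 0.5 Mb and 35.3% in 2 Mb. Isolation within 2 kb gave 8.25%. Narrow peaks on both sides made up 32.3% with a flank of 5 kb, 42.2% where narrow means under 3 kb and 10.6% under 500 bp. A recurring width was shared by 52.1% within 5 bp and 86.5% within 25 bp. The rank correlation was 0.58 within the proximal 1 Mb, 0.45 on the remaining arms, 0.36 on chromosome 4 (12 peaks) and 0.35 on Het sequences. Score for width taken from a line of log2 score on log2 width kept the sign of all 10 named peaks, kept the 5 highest and changed 2 of the 5 lowest. Unknown depth limits all of these.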
